A study of Mus musculus with 10 samples.

Results

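CD8 T cells with granzyme B were 536 cells of 5 single-cell RNA libraries of mouse colorectal carcinoma, chosen by transcripts they held from among 2771 CD8-gated T cells and 21549 cells that passed quality control. A cell passed with at least 300 detected genes and at most 10% mitochondrial UMIs (unique molecular identifiers, 1 per captured transcript). It was CD8-gated when it also had a productive T cell receptor beta (TRB) contig in the TCR library of its tumour, at least 2 UMIs of Cd8a and Cd8b1 together and no UMI of Cd4. The 536 cells, called granzyme B cells here, held in addition at least 1 UMI of Ccl5 and at least 1 of Gzmb. The other 2235 CD8-gated cells served for comparison, as did the 846 of them with Ccl5 and without Gzmb, which differed from the granzyme B cells in the gate by the Gzmb UMI alone.

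Tumour-infiltrating T cells were measured in droplets with a kit that reads RNA at its 5' end, and a matched library of each tumour held the TCR chains of the same cells. The labels gave 2 untreated tumours, 1 tumour treated with S. chamaejasme, the plant Stellera chamaejasme, and 2 tumours treated with S. chamaejasme plus anti-PD-1, called the combination, and no group had anti-PD-1 alone. Strain, age, tumour model, dose and time were not given in the sources used here, nor whether the replicates came from separate animals, so p-values measure the spread between these samples, which may be technical. Values for 5 libraries are given throughout in the order untreated 1, untreated 2, S. chamaejasme, combination 1 and combination 2.

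Cytotoxic CD8 T cells kill target cells by releasing granules that hold perforin, which opens the target membrane, and granzymes, the serine proteases that enter and start cell death. Gzmb encodes granzyme B, and Ccl5 a chemokine that antigen-experienced CD8 T cells transcribe. Naive CD8 T cells hold little of either and instead transcribe receptors for lymph nodes and for recirculation, and they gain the granule programme after their TCR has met antigen and the clone has divided. PD-1, encoded by Pdcd1 and the target of the antibody given here, is an inhibitory receptor of activated T cells.

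The beta chain of the TCR marks a clone, since all descendants of 1 T cell carry the same junction. The CDR3 nucleotides of large clones are shown first, because the results on clonality rest on them. They are clones of at least 5 CD8-gated cells with the most granzyme B cells in 4 of the tumours. In combination 1 the single clone of that size held 0 granzyme B cells. Capitals mark the bases at the junction that matched neither the germline V gene nor the germline J gene of the GENCODE vM21 annotation. The name gives the library, the V and J gene and the number of granzyme B cells among the CD8-gated cells of the clone, and the last line is a clone with 0 granzyme B cells.
untreated 1, TRBV20 and TRBJ2-7, 7 of 7: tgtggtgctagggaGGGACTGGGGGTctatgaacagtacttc
untreated 1, TRBV13-3 and TRBJ2-7, 6 of 6: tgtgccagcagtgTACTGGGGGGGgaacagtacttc
untreated 1, TRBV1 and TRBJ2-5, 6 of 6: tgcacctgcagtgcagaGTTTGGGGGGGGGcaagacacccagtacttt
untreated 2, TRBV5 and TRBJ2-4, 7 of 18: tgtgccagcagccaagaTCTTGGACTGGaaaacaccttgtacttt
S. chamaejasme, TRBV13-3 and TRBJ1-4, 23 of 49: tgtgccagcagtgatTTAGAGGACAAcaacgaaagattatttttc
S. chamaejasme, TRBV19 and TRBJ1-2, 18 of 45: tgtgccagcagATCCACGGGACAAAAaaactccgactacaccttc
S. chamaejasme, TRBV1 and TRBJ1-2, 15 of 58: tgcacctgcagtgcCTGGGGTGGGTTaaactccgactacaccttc
S. chamaejasme, TRBV13-3 and TRBJ1-3, 10 of 15: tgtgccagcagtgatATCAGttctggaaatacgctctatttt
combination 2, TRBV20 and TRBJ1-4, 4 of 6: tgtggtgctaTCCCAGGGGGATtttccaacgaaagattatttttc
combination 2, TRBV19 and TRBJ2-1, 4 of 5: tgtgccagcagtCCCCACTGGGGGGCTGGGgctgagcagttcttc
S. chamaejasme, TRBV12-2+TRBV13-2 and TRBJ1-3, 0 of 13: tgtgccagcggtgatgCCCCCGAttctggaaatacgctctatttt

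The label was checked against markers. All 536 cells had Cd8a or Cd8b1, Ccl5 and Gzmb by the rule. Levels are given in CPM (UMIs of a gene per 1000000 UMIs of the summed cells). The T cell genes Cd3e, Cd3g, Cd3d, Trac, Trbc2 and Lck summed to 4290 to 6370 CPM against 3280 to 5330 in the other CD8-gated cells. The rule asked for a TRB contig in every CD8-gated cell, so these sums are a description and no independent check. All 8 neutrophil and mast cell genes and all 5 erythroid and platelet genes were at 0. Of 12 monocyte and macrophage genes 7 were at 0, among them Csf1r and the C1q genes, and the list sum of 94.4 to 398 CPM came mostly from Ccr2 and Ly6c2, which T cells also transcribe. Of 8 B cell genes 5 were at 0, and of 8 NK and innate lymphoid genes Ncr1, Klra8 and Klra4 were at 0. The sum of these 8, which include Rora and Gata3, was, in the order untreated 1 and 2, S. chamaejasme, combination 1 and 2, 494, 783, 407, 360 and 441 CPM against 299, 234, 220, 121 and 149 CPM in the other CD8-gated cells. The 6 regulatory T cell genes, which include Il2ra and Ctla4, summed to 545, 388, 554, 740 and 722 against 338, 198, 327, 186 and 200 CPM. The 8 epithelial genes, 4 of them at 0, summed to 16.6, 27.5, 40.6, 22.5 and 26.6 against 6.94, 9.02, 18.6, 5.94 and 5.08 CPM. All 3 sums were higher in granzyme B cells in every library. The 4 CD4 T cell genes summed to 49.9, 103, 127, 128 and 75.3 against 102, 69.1, 96.6, 62.4 and 36.3 CPM. For 6 gamma delta T cell genes the sums were 57.3, 30.9, 132, 47.2 and 48.7 against 112, 30.1, 102, 28.4 and 20.6 CPM. For 9 dendritic cell genes they were 14.8, 10.3, 38.4, 56.2 and 55.3 against 10.4, 21.0, 21.6, 44.6 and 8.63 CPM. Fibroblast and endothelial sums were lower in every library. The part of other cells in the results was not tested.

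By library, 112, 62, 210, 71 and 81 cells were granzyme B cells, and their median depth was 4541, 4509.5, 4028, 5511 and 4913 UMIs per cell. Over all passing cells the combination libraries were deeper, with medians of 4969 and 4908 UMIs against 3452 to 3943.5 in the other 3. The labels name no batch, so a technical difference that tracked the treatment groups cannot be told apart from the treatment. Across the 5 RNA libraries 227 barcodes occurred more than once, none of them with the same TRB CDR3 in both, and 7 granzyme B cells carried such a barcode. In 26 of the 536 cells 2 productive TRB chains were found, which can mark a droplet with 2 cells or a T cell with both alleles rearranged, and these cells were kept.

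The share of granzyme B cells among CD8-gated cells was lowest in the combination tumours, but the 2 untreated tumours differed from each other by more than the groups did. It was 38.8% (112 of 289, 95% Wilson interval 33.3 to 44.5) and 16.0% (62 of 387, 12.7 to 20) in the untreated tumours. With S. chamaejasme it was 28.2% (210 of 744, 25.1 to 31.6), and in the combination 11.1% (71 of 641, 8.87 to 13.7) and 11.4% (81 of 710, 9.27 to 14.0). Both combination tumours lay below both untreated ones, and the interval of untreated 2 overlapped those of the combination. The combination mean was lower by 16.15 percentage points, with an SD between the untreated tumours of 16.12 points. Without untreated 1 the difference was -4.75 points, and without untreated 2 it was -27.55 points. The rule used Gzmb and Ccl5, so the shares are a description with no test, and 2 tumours against 2 could not give a two-sided permutation p below 0.33. Intervals here cover counting error only.

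**Figure D1:**
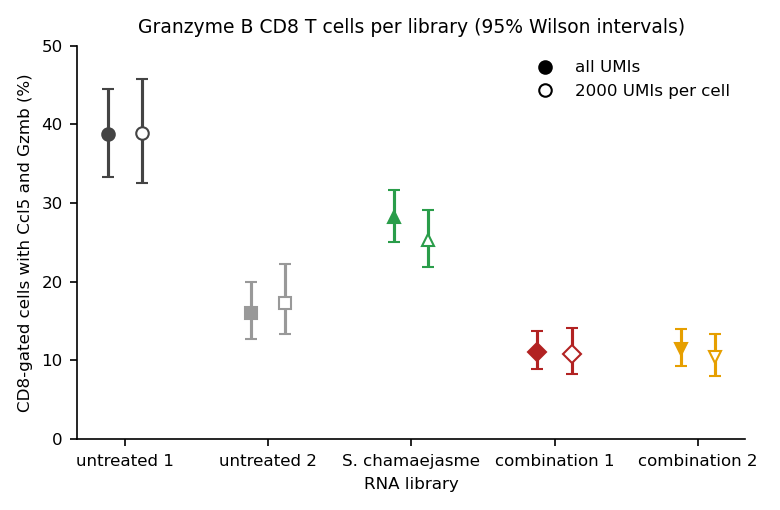
Percent of CD8-gated cells with Ccl5 and Gzmb in each RNA library, at full depth (filled) and after every cell was thinned to 2000 UMIs (open), with 95% Wilson intervals. Untreated 1 stands at 38.8%, and combination 1 and 2 stand at 11.1% and 11.4%.

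After every cell had been thinned to 2000 UMIs before the gate, the shares were 38.9, 17.3, 25.3, 10.8 and 10.4%, with the combination again the lowest and untreated 1 the highest. Resting CD4 T cells, which should lack granzyme B, had a Gzmb UMI in 0.909, 1.48, 1.83, 0.591 and 0.264% of cells at median depths of 3728 to 5700.5 UMIs, well below the shares of CD8-gated cells with Gzmb.

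Within the gate the cells were unequal. A granzyme B cell held a median of 5 Gzmb UMIs (1 to 172) and 66.5 Ccl5 UMIs (1 to 680). Just inside the thresholds, 104 cells had 1 Gzmb UMI, 5 had 1 Ccl5 UMI, 42 had 2 Cd8 UMIs and 44 had no Cd8b1 UMI. Just outside, 846 cells had Ccl5 and no Gzmb, 43 had Gzmb and no Ccl5, and 27 met all else with 1 Cd8 UMI. The level of Gzmb summed over the cells was 2380, 2560, 2500, 1570 and 1300 CPM, so the combination libraries were the lowest also in the level among granzyme B cells. The level of Ccl5 was 12300, 15400, 16800, 20500 and 16400 CPM, lowest in untreated 1. Both levels follow from the choice of cells and were not tested. Gzmb (ENSMUSG00000015437) lies at chr14:56258838-56262260 on the minus strand of mm10.

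The share of cells with Gzma was lowest without Gzmb and highest with 10 or more Gzmb UMIs. CD8-gated Ccl5 cells were put in classes of 0, 1, 2 to 4, 5 to 9 and 10 or more Gzmb UMIs. The mean share with a Gzma UMI over the 5 libraries was 14.3, 33.9, 43.0, 41.2 and 74.1%. The SDs were 4.19, 15.4, 15.5, 8.02 and 15.7 points, so the means for 1 to 9 Gzmb UMIs lay within their spread. A class held as few as 10 cells in a library. Median depth was nearly flat over the classes, from 4235 to 4628 UMIs per cell, and Gzma did not rise between 2 to 4 and 5 to 9 Gzmb UMIs. The classes are a description and were not tested.

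The next comparison asked which other genes went with Ccl5 and Gzmb in the same tumour. UMIs were summed per library over the granzyme B cells (291316 to 911066 UMIs) and over the other CD8-gated cells (865066 to 3938436 UMIs). The cells had been divided by their own Ccl5 and Gzmb UMIs, so genes that accompany those transcripts differ by that division, and the values are a description of the cells. Log2 differences are from edgeR's quasi-likelihood model with the library as a block, given with their standard error (SE). A gene "passed" with a Benjamini-Hochberg adjusted p under 0.05. Here that p only weighs a difference against a spread over 5 libraries, which is partly shared between genes. A gene can therefore pass with libraries of both signs. Of 6405 genes 601 passed as higher (9.38%) and 510 as lower (7.96%), a large background from which nothing is read. The 5 genes of the gate were left out.

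Granule genes were higher: of the 17 tested, 12 passed, all as higher, with a median log2 difference of 0.84 against 0.00 over all genes. Gzma, encoding granzyme A, a tryptase-like protease of the same granules, stood at 2220, 1190, 1910, 3150 and 2400 CPM in granzyme B cells. In the other CD8-gated cells it stood at 104, 29.5, 47.9, 22.4 and 25.6 CPM, so no library overlapped (log2 difference 5.60, SE 0.25). Gzma (ENSMUSG00000023132) lies at chr13:113093825-113100981 on the minus strand, next to Gzmk at chr13:113171608-113225908. Gzmk, encoding granzyme K, had 179, 237, 166, 394 and 244 CPM against 35.8, 35.5, 51.7, 20.8 and 39.6 CPM (2.54, SE 0.22). Serpinb6b, a serpin protease inhibitor, and Fasl, the ligand of the death receptor Fas, were higher by 2.12 (SE 0.16) and 2.26 (SE 0.23), and the granule protein gene Nkg7 by 0.92 (SE 0.09). Prf1, which encodes perforin, did not follow: it had 33.3, 30.9, 18.7, 24.7 and 24.4 CPM against 26.6, 25.9, 17.4, 31.3 and 34.0 CPM (-0.24, SE 0.21), and the populations overlapped. Without thinning, a Prf1 UMI was seen in 11.6, 9.68, 7.62, 15.5 and 13.6% of granzyme B cells, 10.7, 12.6, 7.30, 18.4 and 18.1% of the other CD8-gated cells and 9.09, 2.59, 4.19, 11.3 and 12.5% of resting CD4 cells. Granzyme B cells were above resting CD4 cells in all 5 libraries and above the other CD8-gated cells only in untreated 1 and S. chamaejasme. The share that free RNA gave was not measured.

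Of the granzyme B cells that still met the gate after thinning to 2000 UMIs, 53.2, 39.6, 41.3, 62.5 and 47.1% had a Gzma UMI against 4.09 to 11.3% of the other CD8-gated cells. In resting CD4 cells the unthinned share was 0 to 0.923%. Gzma and Gzmk together were seen in 22.8, 22.9, 12.3, 22.9 and 19.6% of these cells, and neither of them in 35.4, 43.8, 51.4, 18.8 and 31.4%. Gzma without Gzmk was seen in 16.7 to 39.6% and Gzmk without Gzma in 7.25 to 21.6%. A cell without a UMI may hold the transcript, since the share with Gzmk was 35.2 to 62.0% before thinning and 19.6 to 41.7% after it.

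Of 9 chemokine and chemokine receptor genes tested, 7 passed as higher and Cxcr4 as lower, and of 6 cytokine genes Ifng and Tnf passed as higher. Ccl4 and Ccl3, which encode the chemokines MIP-1 beta and MIP-1 alpha, differed by 2.55 (SE 0.16) and 2.08 (SE 0.20). Ifng, encoding interferon gamma, had 227, 271, 398, 250 and 279 CPM against 62.4, 69.7, 214, 48.9 and 71.9 CPM (1.55, SE 0.15). Every library was higher within itself, and the S. chamaejasme library was highest in both populations. Tnf differed by 0.69 (SE 0.12), and the chemokine receptors Ccr2 and Cxcr6 by 2.36 (SE 0.23) and 1.80 (SE 0.20). The chemokine Xcl1 did not pass (0.26, SE 0.27).

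Receptors with NK cell names and inhibitory receptors were mostly higher. Klrc1, encoding the inhibitory NKG2A chain, had 453, 721, 392, 371 and 438 CPM against 48.6, 92.0, 148, 31.9 and 69.6 CPM (2.48, SE 0.20). Klrk1, the activating receptor NKG2D, differed by 2.18 (SE 0.22). Klrd1, the CD94 partner of NKG2A, had 77.7 to 214 CPM against 72.7 to 137 CPM (0.27, SE 0.16) and did not pass. Of the 12 inhibitory and exhaustion genes tested 9 passed, all as higher, among them Tigit (1.38, SE 0.13) and Ctla4 (1.10, SE 0.16), which encode checkpoint receptors. Pdcd1 had 24.0, 117, 15.4, 40.5 and 97.4 CPM against 10.4, 13.8, 14.4, 17.0 and 19.6 CPM (1.53, SE 0.30). Its level was uneven over the libraries, and in the S. chamaejasme library the populations were almost equal. Lag3 (0.79, SE 0.30) and Tox (-0.16, SE 0.16), genes of chronically stimulated T cells, did not pass.

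**Figure D2:**
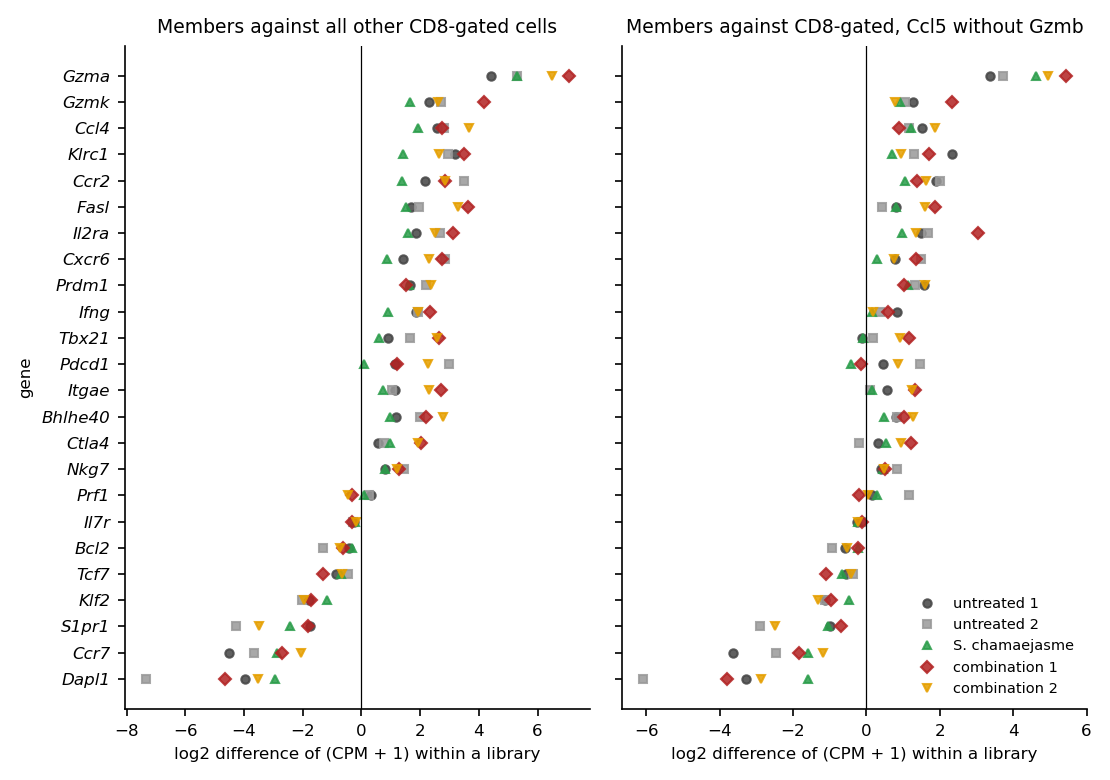
Log2 difference of (CPM + 1) within each library for named genes, between granzyme B cells and all other CD8-gated cells (left) or CD8-gated cells with Ccl5 and without Gzmb (right). Each point is 1 library. Gzma lies farthest to the right in both panels, and Ccr7 and Dapl1 lie to the left in all 5 libraries.

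Naive and memory genes were lower: of 18 tested, 15 passed, all as lower, with a median of -1.52. Ccr7, the chemokine receptor for lymph nodes, had 29.6, 72.1, 72.4, 162 and 290 CPM against 691, 921, 531, 1060 and 1210 CPM (-3.14, SE 0.20). S1pr1, needed for exit from lymph nodes, and its activator Klf2 differed by -2.66 (SE 0.22) and -1.91 (SE 0.12). Dapl1 and Igfbp4, transcripts of naive CD8 T cells, differed by -4.12 (SE 0.25) and -3.43 (SE 0.25). Tcf7, encoding the factor TCF-1 of naive and stem-like T cells, was only partly lower, at 96.7 to 153 CPM against 186 to 244 CPM (-0.99, SE 0.12). Il7r, the interleukin-7 receptor, was lower by less, at 247 to 357 CPM against 303 to 419 CPM (-0.45, SE 0.09). The differences were thus larger for Ccr7 and S1pr1 than for Tcf7 or Il7r.

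Of 14 effector transcription factor genes 9 passed, all as higher. Bhlhe40 differed by 1.63 (SE 0.17), Rora by 1.45 (SE 0.15), Zeb2 by 2.32 (SE 0.33) and Prdm1, encoding the terminal differentiation factor BLIMP-1, by 1.83 (SE 0.25). Tbx21, encoding T-bet, which drives Ifng and granule genes, had 31.4, 65.2, 67.0, 117 and 93.0 CPM against 16.2, 19.8, 44.1, 18.1 and 15.0 CPM (1.56, SE 0.25). Eomes, its relative, had 1.85, 54.9, 5.49, 4.50 and 26.6 CPM against 10.6 to 33.8 CPM (-0.79, SE 0.36). Eomes was higher only in untreated 2 and did not pass. Without untreated 2 its difference was -1.40 and passed as lower.

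Among cytokine receptors Il2ra, the high-affinity interleukin-2 receptor chain, had 57.3, 75.5, 41.7, 40.5 and 17.7 CPM against 15.0, 10.8, 13.1, 3.78 and 2.29 CPM (2.23, SE 0.26), and Il12rb2, a chain of the interleukin-12 receptor, differed by 2.25 (SE 0.22). Ifngr2 and Il6ra, receptor chains for interferon gamma and interleukin-6, were lower by -2.29 (SE 0.18) and -3.40 (SE 0.31). Of 14 genes of residence and adhesion 6 passed as higher and Cd9 as lower, with a median of 0.33: Itgae, encoding CD103, which binds epithelial E-cadherin, was higher by 1.47 (SE 0.21) and Itga1, encoding CD49a, which binds collagen, by 2.28 (SE 0.28). The survival gene Bcl2 was lower (-0.81, SE 0.13) and its relative Bcl2l1 higher (1.67, SE 0.23). Of 13 S100, galectin, annexin, lamin and vimentin genes 11 passed, all as higher, with a median of 1.27, among them S100a6 (2.0, SE 0.17) and Lgals3 (2.08, SE 0.21). Fgl2, encoding a secreted fibrinogen-like protein, and Litaf were higher by 2.74 (SE 0.33) and 2.46 (SE 0.20).

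Set against CD8-gated cells that had Ccl5 and no Gzmb, the granzyme B cells still differed in Gzma and in Ccr7. Of 5122 genes 194 passed as higher (3.79%) and 182 as lower (3.55%), again a background of the division by Gzmb from which nothing is read. Without the library as a block the total of 376 fell to 77. Gzma kept its place: it had 214, 90.0, 76.9, 71.4 and 76.5 CPM in the Ccl5 cells without Gzmb, all below the lowest granzyme B sum (4.39, SE 0.17). The other members of the granule list that passed, 8 of 15 in all, included Gzmk (1.16, SE 0.15), Fasl (1.04, SE 0.14) and Nkg7 (0.42, SE 0.08). Ccl4 (1.22, SE 0.11), Ccr2 (1.41, SE 0.16), Klrc1 (1.18, SE 0.13) and Il2ra (1.48, SE 0.26) were higher, and Itgae too (0.63, SE 0.14). For Itgae the call was lost without combination 1 (0.46) or combination 2 (0.48), without the library block (0.63), and after thinning (0.13). Klrc1 did not pass after thinning (0.56), and Il2ra (1.60), Nkg7 (0.41) and Hspa1a (-0.55) did not pass without the library block.

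Of 17 naive and memory genes 13 passed, all as lower. Ccr7 had 379, 400, 221, 578 and 654 CPM in the Ccl5 cells without Gzmb (-2.01, SE 0.17), above the granzyme B cells of the same library in all 5. Id3, a factor of memory precursors, differed by -2.45 (SE 0.19), Dapl1 by -3.06 (SE 0.29), S1pr1 by -1.48 (SE 0.22) and Tcf7 by -0.73 (SE 0.12), which did not pass after thinning (-0.46). Ifng (0.27, SE 0.10), Pdcd1 (0.41, SE 0.22) and Tbx21 (0.36, SE 0.18), which had been higher against all other CD8-gated cells, did not pass here. Hspa1a, a heat shock gene that also answers to tissue handling, was lower (-0.61, SE 0.10). Xcl1, the ligand of the receptor XCR1 on dendritic cells, was lower by -0.73 (SE 0.23), at 165, 216, 85.6, 72.0 and 70.8 CPM against 78.8, 172, 266, 161 and 155 CPM. It was higher in both untreated libraries and lower in the other 3, and the call was lost without S. chamaejasme (-0.38), combination 1 (-0.61) or combination 2 (-0.63), with DESeq2 (-0.64), with at least 2 Gzmb UMIs (-0.82) and without the library block (-0.64).

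Among cells of the same clones Gzma again differed, and few other genes passed. Restricted to clones that held both kinds, 250 granzyme B cells were set against 295 other CD8-gated cells, and 10 of 2254 genes passed, 7 as higher (0.311%) and 3 as lower (0.133%). Gzma stood at 1050, 945, 1060, 4940 and 2970 CPM against 68.8, 174, 130, 336 and 155 CPM (3.42, SE 0.17). Crip1 (0.79, SE 0.12), Lilr4b (0.89, SE 0.14), Il4ra (0.83, SE 0.15), Dusp1 (0.63, SE 0.13), Ifngr1 (0.53, SE 0.11) and Serpinb6b (1.03, SE 0.22) were the others that passed as higher, and Hspa1a (-0.62, SE 0.12), Ifi27l2a (-0.67, SE 0.13) and Arhgap15 (-0.87, SE 0.18) as lower. Ifng (-0.26), Ctla4 (-0.23) and Itgae (-0.03) were not higher within clones, and Gzmk (0.54), Klrc1 (0.42) and Fasl (0.49) were higher without passing. The sums held as few as 17 cells, fewer genes could be tested, and a p that misses the threshold does not show that cells of a clone were alike. Of the 1111 genes that passed in the full comparison, 654 could be tested within clones and 498 (76.1%) kept their direction.

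Granzyme B cells were more clonally expanded than the other CD8-gated cells in every tumour. A clone was defined within a tumour by the V gene and the CDR3 nucleotides of the TRB contig with most UMIs, and it was expanded when at least 2 passing cells carried it. The TCR sequence was not used to choose the cells. Expanded clones held 67.9, 59.7, 76.7, 35.2 and 49.4% of granzyme B cells against 26.0, 15.4, 39.1, 7.72 and 11.1% of the other CD8-gated cells. The difference was 41.87, 44.29, 37.53, 27.49 and 38.25 percentage points, with a mean of 37.89 (SD 6.43, n = 5). It was positive in 5 of 5 tumours (exact two-sided permutation test, p = 0.063, the smallest that 5 tumours allow). Against Ccl5 cells without Gzmb, of which 39.3, 42.9, 58.9, 23.4 and 32.4% were in expanded clones, the mean difference was 18.39 points (SD 6.17, n = 5, 5 of 5 positive, exact permutation p = 0.063).

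**Figure D3:**
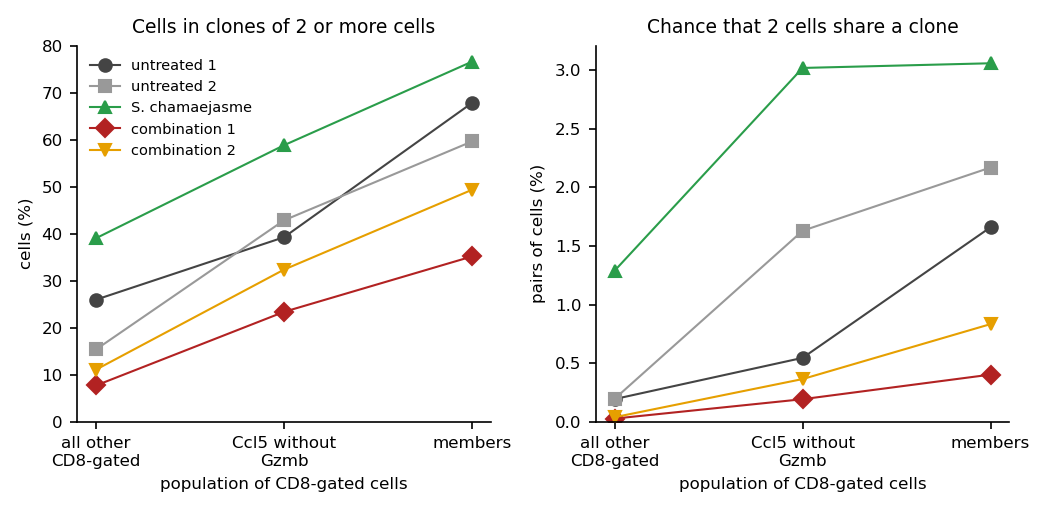
Percent of cells in clones of 2 or more cells (left) and percent of pairs of cells that share a clone (right), for 3 populations of CD8-gated cells. Lines join the populations of 1 tumour. Granzyme B cells, named members on the axis, are the highest population in all 5 tumours in both panels. In the S. chamaejasme tumour their pair share of 3.06% is nearly level with the 3.02% of Ccl5 cells without Gzmb.

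The chance that 2 different granzyme B cells of a tumour shared a clone, which does not grow with the number of cells, was 1.66, 2.17, 3.06, 0.402 and 0.833%. For the other CD8-gated cells it was 0.193, 0.196, 1.29, 0.0265 and 0.0385%. The mean difference was 1.28 percentage points (SD 0.67, n = 5), positive in 5 of 5 tumours (exact permutation p = 0.063). Ccl5 cells without Gzmb had 0.545, 1.63, 3.02, 0.192 and 0.364%, nearly level with granzyme B cells in the S. chamaejasme tumour. Against them the mean difference was 0.474 points (SD 0.409, n = 5, exact permutation p = 0.063). Both combination tumours had a lower expanded share and pair probability among granzyme B cells than the other 3. With 2 tumours against 2 no two-sided permutation p could be below 0.33, so the groups were not tested. These were the 2 clonality measures computed, each against 2 populations.

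The 536 cells formed 326 clones, 65, 43, 93, 63 and 62 by tumour. A single-cell clone held 36, 25, 49, 46 and 41 of the granzyme B cells. Between 23.8 and 31.2% of their clones also held other CD8-gated cells, and these clones held 37.5, 46.8, 60.5, 29.6 and 38.3% of the granzyme B cells. The largest clone held 6.25, 11.3, 11, 4.23 and 4.94% of them, so none of the 5 tumours was dominated by 1 clone.

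Of 37 clones with at least 5 CD8-gated cells, 32 held granzyme B cells, 180 in all. The share varied widely between such clones of the same tumour. In the S. chamaejasme tumour, the TRBV13-3 clone with TRBJ1-3 had 10 granzyme B cells of 15 (66.7%, 95% Wilson interval 41.7 to 84.8). The TRBV1 clone had 15 of 58 (25.9%, 16.3 to 38.4), and the TRBV12-2+TRBV13-2 clone 0 of 13 (interval up to 22.8%). In untreated 1, all CD8-gated cells of 3 clones were granzyme B cells, namely 7 of 7, 6 of 6 and 6 of 6 (lower limits 64.6, 61.0 and 61.0%). Cells of a clone share their descent and their library, so these shares describe the clones and were not tested.

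**Figure D4:**
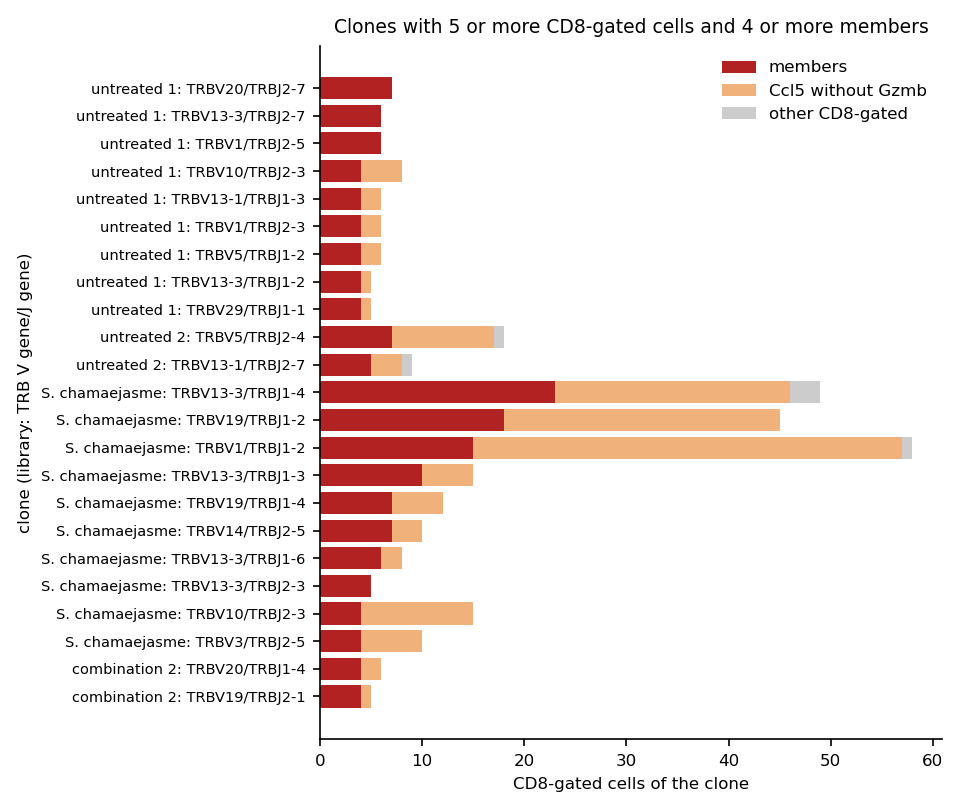
CD8-gated cells of each clone with at least 5 such cells and at least 4 granzyme B cells, divided into granzyme B cells (members), cells with Ccl5 and without Gzmb, and the rest. The 3 longest bars are S. chamaejasme clones with 23 of 49, 18 of 45 and 15 of 58 granzyme B cells.

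The alpha chains of the large clones fell largely into 2 V gene families, a pattern noticed after the values were seen. Of the 37 clones 14 used a TRAV14 gene, and 11 of these held granzyme B cells, 84 of the 180. A TRAV16 gene was used by 10, all with granzyme B cells, 55 of the 180. Over all families 32 of the 37 clones held granzyme B cells. Counting each clone once, TRAV16 was used by 14.3, 18.4, 10.1, 15.8 and 19.0% of granzyme B clones and by 10.4, 10.2, 6.81, 7.93 and 9.35% of the other CD8-gated clones. TRAV14 was used by 19.6, 26.3, 13.9, 5.26 and 5.17% against 13.6, 5.74, 8.05, 5.85 and 4.01%. TRAV16 was thus higher in 5 of 5 tumours and TRAV14 in 4, with combination 1 the exception. The families hold near-identical copies that short contigs may not tell apart, so genes were pooled by family.

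Few CDR3s of granzyme B cells occurred in more than 1 tumour. Of 317 distinct TRB CDR3 amino acid sequences 5 (1.58%) were found in granzyme B cells of at least 2 tumours, against 14 of 1942 (0.721%) in the other CD8-gated cells. With the same alpha V gene these were 3 of 296 (1.01%) and 3 of 1701 (0.176%), and with both CDR3s 2 of 299 (0.669%) and 1 of 1702 (0.0588%). No barcode was shared between the cells of any such set. The populations differed in the number of sequences and in clone sizes, and the shared sequences were few. The shares are therefore a description and were not tested. The set found in 3 tumours used TRBV2, TRBJ2-1 and TRAV6N-7, and its beta nucleotides are shown because they differ at 1 base, marked by a capital. Counted from 1 at the 5′ end, the difference from the S. chamaejasme sequence was A18G in both other tumours.
S. chamaejasme, TRB: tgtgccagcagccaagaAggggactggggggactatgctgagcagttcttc
combination 2, TRB: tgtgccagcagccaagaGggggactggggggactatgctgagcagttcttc
untreated 2, TRB: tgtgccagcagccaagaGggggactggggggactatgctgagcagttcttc
The alpha chains of the same cells had equal length and differed only at the capitals, by G14A, C15A and T16A in combination 2 and by T12C, G13C and G14T in untreated 2.
S. chamaejasme, TRA: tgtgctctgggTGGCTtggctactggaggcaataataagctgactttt
combination 2, TRA: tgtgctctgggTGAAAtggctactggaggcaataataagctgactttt
untreated 2, TRA: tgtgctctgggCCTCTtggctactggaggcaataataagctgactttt
In another set, TRBV3, TRBJ2-1 and TRAV13-1, the S. chamaejasme cells differed from untreated 1 by A15T in the beta chain and T13A in the alpha chain. A further set had the same nucleotides in both chains, in 3 granzyme B cells of the S. chamaejasme tumour and in 1 of combination 1, and used TRBV12-2+TRBV13-2, TRBJ2-5 and TRAV7-4.
both tumours, TRB: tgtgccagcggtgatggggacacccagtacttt
both tumours, TRA: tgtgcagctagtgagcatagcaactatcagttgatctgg
The germline match left 2 junction bases in this beta chain, the fewest of the sequences shown.

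Between treatments the 5 sums of granzyme B cells were fitted together, with 2 residual degrees of freedom, and the gene tests do not use the gate genes. The quasi-likelihood test draws each gene's spread toward that of all genes. Its p-values therefore rest largely on that shared spread and little on the gene's own replicates. The comparison of the combination with the untreated tumours asked which transcripts of these cells differed under S. chamaejasme plus anti-PD-1. Of 5939 genes 57 passed as higher (0.96%) and 100 as lower (1.68%), by edgeR's quasi-likelihood test with Benjamini-Hochberg adjustment, as for all adjusted p below. The total of 157 was 35 with DESeq2, 50 when at least 2 Gzmb UMIs were asked and 104 when a Cd8b1 UMI was asked, and it was 65 without combination 1, 91 without combination 2 and 215 without untreated 1. With DESeq2 5 were higher and 30 lower, a smaller share of higher genes. In 3 transcripts that can follow library quality, Gm42418, AY036118 and Lars2, the untreated sums were also higher: Gm42418 had 12600, 12900, 5310, 7220 and 6120 CPM, AY036118 2300, 2240, 532, 1100 and 1210 CPM, and Lars2 1660, 1650, 425, 969 and 638 CPM. The heat shock gene Hspa1a had 638, 384, 1550, 780 and 1080 CPM, highest in the S. chamaejasme tumour. Their part in the results between groups was not tested.

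Fos, the adhesion gene Crtam and the homing gene Ccr7 were among the genes that rose. Of 22 TCR signal and immediate early genes tested, Fos and Dusp1 passed as higher and Nfkbia as lower, and Dusp1 did not pass without untreated 2 (0.69) or combination 2 (0.48). Fos, which encodes a subunit of the AP-1 factor that TCR signals and stress induce, had 348 and 288 CPM untreated, 1070 in the S. chamaejasme tumour and 1300 and 1100 in the combination. It rose by 1.84 on the log2 scale (SE 0.22, adjusted p = 1.04e-09), with no overlap between the groups. Crtam, an adhesion receptor of activated CD8 T cells, had 18.5 and 17.2 CPM untreated and 63.0 and 75.3 CPM in the combination (1.86, SE 0.40, adjusted p = 0.0012). Without combination 2 it was 1.69 (edgeR adjusted p = 0.0506), and with DESeq2 the adjusted p was 0.303. Ccr7 rose from 29.6 and 72.1 to 162 and 290 CPM (2.22, SE 0.32, adjusted p = 3.19e-07) and stayed below the other CD8-gated cells in every library. With at least 2 Gzmb UMIs its rise was 1.96 (adjusted p = 0.0716). Arhgap9, encoding a GTPase-activating protein of blood cells, rose from 40.7 and 30.9 to 162 and 135 CPM (1.93, SE 0.32, adjusted p = 1.27e-05).

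Klrk1, Itgae and Tbx21 were the genes of a panel of 31 tested T cell genes that passed as higher, and each call was lost when single libraries were left out. Klrk1 had 46.2 and 75.5 CPM untreated and 112 and 179 CPM in the combination (1.27, SE 0.31, adjusted p = 0.0066), but 0.89 without untreated 1 and 0.84 without combination 2, and did not pass in either. Itgae had 170 and 72.1 CPM against 335 and 241 CPM (1.09, SE 0.26, adjusted p = 0.0053), and 0.69 without untreated 2 and 0.90 without combination 1, where it did not pass. Tbx21 had 31.4 and 65.2 CPM against 117 and 93.0 CPM (1.16, SE 0.33, adjusted p = 0.033). It did not pass without untreated 1 (0.61), S. chamaejasme (1.18), combination 1 (1.01) or combination 2 (1.27). The groups did not overlap for any of these genes, and DESeq2 called none of them (adjusted p = 0.481, 0.246 and 0.875). Panel genes that did not pass, such as Prf1, Nkg7 and Tox, did not overlap either. The share without overlap over all genes was not counted.

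Ifitm3, Cdkn1a, Bbc3, Lmna, Crip1, Vim, Xcl1 and Nfkbia were among the genes that fell. Of 13 S100, galectin, annexin, lamin and vimentin genes tested, 3 passed, all as lower (Crip1, Lmna and Vim). Ifitm3, an interferon-induced antiviral membrane protein, had 59.2 and 65.2 CPM untreated, 3.29 in the S. chamaejasme tumour and 4.50 and 6.64 in the combination (-3.48, SE 0.57, adjusted p = 9.53e-06). It was the sole gene of 19 tested interferon response genes that passed. In the other CD8-gated cells Ifitm3 was at 0 to 4.66 CPM in all libraries, below the untreated granzyme B cells. Cdkn1a, the cell cycle inhibitor p21, and Bbc3, the cell death gene PUMA, both targets of p53, fell by 2.25 (SE 0.38, adjusted p = 1.27e-05) and 2.26 (SE 0.44, adjusted p = 0.00022). Bbc3 was -2.49 with at least 2 Gzmb UMIs (adjusted p = 0.0778). Lmna, the nuclear lamin A gene, fell from 113 and 127 to 33.7 and 22.1 CPM (-2.15, SE 0.35, adjusted p = 5.6e-06). Crip1 fell by 1.45 (SE 0.22, adjusted p = 1.06e-06) and Vim, encoding vimentin, by 1.03 (SE 0.21, adjusted p = 0.0004). Vim without combination 2 was -0.93 (adjusted p = 0.0563). Xcl1 fell from 165 and 216 to 72.0 and 70.8 CPM (-1.46, SE 0.28, adjusted p = 0.00022). Nfkbia, the inhibitor of NF-kappa B that NF-kappa B itself induces, fell by 1.28 (SE 0.19, adjusted p = 1.19e-06), and the inhibitory receptor gene Lilrb4a by 1.68 (SE 0.31, adjusted p = 8.07e-05). Lilrb4a and Rgs16 were the 2 of 14 tested inhibitory and exhaustion genes that passed, and Rgs16 had 31.4 and 192 CPM untreated and 36.0 and 13.3 CPM in the combination, so its groups overlapped. Rgs16 did not pass without untreated 2 (-0.42) or S. chamaejasme (-2.04).

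Granule genes of the granzyme B cells gave no uniform difference. Of 16 tested, Srgn alone passed, with a list median of 0.35 against 0.00 over all genes. Srgn, the proteoglycan core of the granules, fell from 2860 and 4170 to 2120 and 2220 CPM (-0.76, SE 0.18, adjusted p = 0.0055). It did not pass without untreated 2 (-0.46) or combination 1 (-0.69). Gzma differed by 0.62 (SE 0.19, adjusted p = 0.062) and Gzmk by 0.56 (SE 0.24, adjusted p = 0.264). Gzma stood at 2220 and 1190 CPM untreated and 3150 and 2400 CPM in the combination, and without untreated 1 it passed at 1.14 (adjusted p = 0.00046). Ctla4 had 435 and 275 against 616 and 644 CPM (0.74, SE 0.22, adjusted p = 0.0503), and without untreated 1 it passed at 1.13 (adjusted p = 0.004). Pdcd1, the gene of the antibody's target, had 24.0 and 117 CPM untreated and 40.5 and 97.4 CPM in the combination (0.12, SE 0.37, adjusted p = 0.94). The groups overlapped, and with 1 library left out the Pdcd1 difference ranged from -0.82 without untreated 1 to 1.46 without untreated 2. In all, 27 of the 31 panel genes did not pass, with log2 differences from -1.22 to 2.29, which does not show that they were equal.

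**Figure D5:**
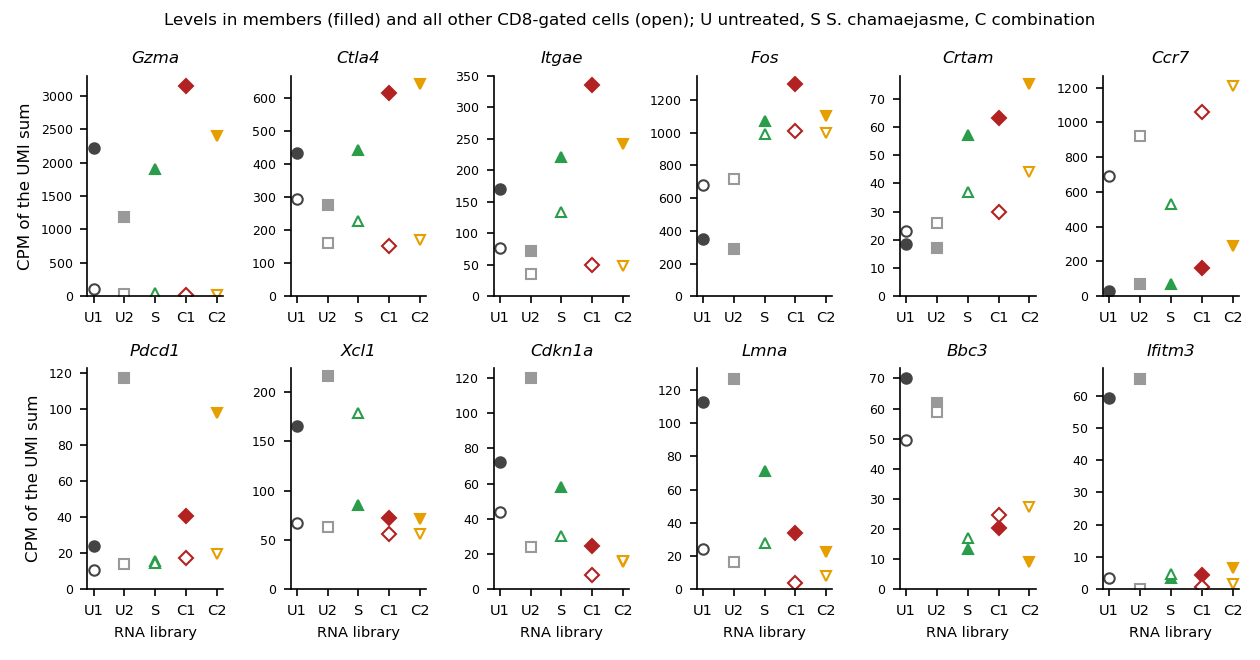
CPM of 12 genes in each library in granzyme B cells (filled, named members) and in all other CD8-gated cells (open). Fos in granzyme B cells is 348 and 288 CPM in the untreated libraries and 1070 to 1300 in the treated ones, while Ifitm3 is 59.2 and 65.2 CPM untreated and at most 6.64 in the treated ones.

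The single S. chamaejasme tumour was set against the same 2 untreated tumours, so this comparison shares its controls with the one before, and its 1 library was taken to have the same spread as the other groups. The tests therefore say how far this library lay from the untreated ones, and they hold no measure of the spread between S. chamaejasme tumours. Of 5939 genes 35 passed as higher (0.589%) and 49 as lower (0.825%). The total of 84 was 13 with DESeq2 (4 higher, 9 lower), 13 with at least 2 Gzmb UMIs and 28 with a Cd8b1 UMI, and 55 without untreated 2, 55 without combination 2 and 199 without untreated 1. Fos was higher at 1070 CPM (1.70, SE 0.24, adjusted p = 3.01e-07), as was Hspa1a at 1550 CPM against 638 and 384 CPM (1.54, SE 0.25, adjusted p = 6.92e-06). Dusp1, a phosphatase gene that TCR signals induce, had 1610 CPM against 815 and 680 CPM (1.06, SE 0.24, adjusted p = 0.0042; without untreated 2 0.95, adjusted p = 0.0525). Crtam stood at 57.1 CPM (1.61, SE 0.43, adjusted p = 0.032). It did not pass without untreated 1 (1.69), untreated 2 (1.58) or combination 2 (1.62).

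Ifitm3 (-4.17, SE 0.67, adjusted p = 7.23e-06) and Lilrb4a (-2.12, SE 0.36, adjusted p = 3.08e-05) were lower with S. chamaejasme, and Bbc3 as well (-2.36, SE 0.48, adjusted p = 0.00092; -2.48 with at least 2 Gzmb UMIs, adjusted p = 0.214). Of the 31 panel genes 3 passed, all as lower. Ly6c2, a surface antigen of memory and interferon-exposed T cells, had 13.2 CPM against 70.3 and 240 CPM (-3.46, SE 0.48, adjusted p = 8.76e-08). Pdcd1 had 15.4 CPM against 24.0 and 117 CPM (-2.01, SE 0.51, adjusted p = 0.0192), and without untreated 2 it was -0.67 (adjusted p = 0.746). Xcl1 had 85.6 CPM (-1.17, SE 0.31, adjusted p = 0.032), and it did not pass without untreated 2 (-0.98) or either combination library (-1.17 each). Il17a, a cytokine gene of type 17 T cells, was at 53.8 CPM against 7.4 and 3.43 CPM and at 0 in both combination libraries (3.08, SE 0.72, adjusted p = 0.0081; 3.17 with at least 2 Gzmb UMIs, adjusted p = 0.08). Its UMIs lay in 5 of 210 granzyme B cells (2.38%), against 1.79 and 1.61% of the untreated ones and 2.09% of resting CD4 cells of the same library, so a few cells carried the level.

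A small group of granzyme B cells carried Fcer1g and Tyrobp, adaptor genes typical of NK and innate-like T cells. A Fcer1g UMI was seen in 0 of 174 untreated granzyme B cells, which allows a share of up to 1.72%, in 9 of 210 of the S. chamaejasme tumour, and in 1 of 71 and 2 of 81 of the combination tumours. Of the 9 cells 8 had no Cd8b1 UMI, and all 9 were single-cell clones. Summed over cells, Fcer1g had 0, 0, 74, 25 and 20 UMIs and Tyrobp 0, 0, 35, 25 and 19 UMIs. The UMIs were concentrated in few cells: in combination 1 all 25 Fcer1g UMIs came from 1 cell. Of the granzyme B cells 4.29% had a UMI in the S. chamaejasme tumour, 1.41% in combination 1 and 2.47% in combination 2, so combination 1 lay under what the untreated count allows and combination 2, with 2 cells, above it. In the other CD8-gated cells 0 of 177, 2 of 325, 32 of 534, 10 of 570 and 4 of 629 had a Fcer1g UMI.

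Whether the combination went with a different change in granzyme B cells than in the other CD8-gated cells was tested by an interaction term over 10 sums. Of 7963 genes 18 had a more positive difference in the granzyme B cells (0.226%) and 10 a more negative one (0.126%). The total of 28 was 4 with DESeq2 (3 higher, 1 lower), 9 with at least 2 Gzmb UMIs and 17 without combination 1. Gzma stood at 3150 and 2400 CPM in the combination against 2220 and 1190 CPM untreated in granzyme B cells, and at 22.4 and 25.6 against 104 and 29.5 CPM in the others, and these differences were apart by 1.90 (SE 0.28, adjusted p = 2.69e-06). For Fos, which in the other cells had 683 and 718 CPM untreated and 1010 and 1000 CPM in the combination, the differences were apart by 1.27 (SE 0.24, adjusted p = 0.00042). Without combination 1 the Fos interaction was 1.20 (adjusted p = 0.162), and with at least 2 Gzmb UMIs 1.26 (adjusted p = 0.0614). Cd7, a T cell costimulatory receptor, had 324 and 127 against 859 and 677 CPM in granzyme B cells and 228 and 126 against 211 and 156 CPM in the others (1.62, SE 0.25, adjusted p = 3.65e-06). In the opposite direction, Ly6c2 was at 70.3 and 240 against 110 and 62.0 CPM in granzyme B cells and at 54.3 and 80.0 against 188 and 167 CPM in the others (-2.27, SE 0.31, adjusted p = 4.03e-07). Pdcd1 and Gzmk were among the 27 of 32 panel genes whose interaction did not pass. Both populations had been divided by their own Ccl5 and Gzmb UMIs, and the make-up of the others differed between tumours. Cells with Ccl5 and without Gzmb were 84 of 177 and 105 of 325 of the others untreated. In the combination they were 145 of 570 and 179 of 629. A Gzmb UMI was seen in 5.08 and 1.85% of the others untreated and in 2.11 and 1.75% in the combination. The part of this division in the interaction was not tested.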

How the data were processed

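Gene by cell UMI counts of 5 RNA libraries and the annotated TCR contigs of 5 matched libraries were used as the authors deposited them. Counts were made with Cell Ranger 3.1.0 and STAR on mm10, per the submitters' processing notes, and the STAR version was not given in the sources used here. No doublet caller was run, and cells with 2 TRB chains were kept.

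UMIs of the chosen cells were summed per library, without the 5 gate genes, and fitted with edgeR 4.0.16 (R 4.3.3; TMM scaling, filterByExpr, quasi-likelihood test, Benjamini-Hochberg adjustment, threshold 0.05) over all genes that passed the filter. Comparisons between populations had the library as a block, since both come from the same tumour. No paired analysis was possible between treatment groups, because replicate numbers only name libraries. Alternatives were DESeq2 1.42.0, no filter, 1 TRB chain, at least 2 Gzmb UMIs and each library left out. At least 1 Cd8b1 UMI was another, chosen after seeing the data. Thinning to 2000 UMIs per cell, no library block and cells of the same clones were further ones. Among gene tests these last were run only for granzyme B cells against the other CD8-gated cells and against Ccl5 cells without Gzmb. Gene tests between groups and of the interaction were not thinned, so their dependence on depth was not tested. Fits were also run on simulated sums with known changes. These held no library effects and no choice of cells by Gzmb, so they do not bear on either. Intervals are Wilson 95% intervals from scipy 1.17.1 under Python 3.11.15, and clone differences had an exact sign-flip permutation test over 5 tumours.

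The cells and the gene lists were chosen with earlier results of these data known. Named genes were a panel of T cell genes, the 8 largest differences each way among passed genes with a mean of at least 20 CPM, and up to 4 passed genes of each list, from which the text takes those it describes. Genes outside this rule (AY036118, Gm42418, Lars2, Fcer1g, Tyrobp and the genes that passed within clones) were chosen after their values were seen. Some genes of the panel and lists, though counted in them, are not reported here.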

Additional observations from a re-analysis of the deposited data

Results flagged for a closer look

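The difference between combination and untreated tumours was itself different in granzyme B cells and in the other CD8-gated cells for 28 genes, by the interaction term of edgeR's quasi-likelihood test with Benjamini-Hochberg adjustment. The test compares the same 4 tumours in both populations, with the S. chamaejasme tumour in the fit. The populations were divided by their own Ccl5 and Gzmb UMIs, so a gene that accompanies those transcripts can differ by that division. The part of that division in these results was not tested.

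Of the genes described, 10 had a more positive difference in granzyme B cells. Gzma (1.90, adjusted p = 2.69e-06) and Cd7 (1.62, adjusted p = 3.65e-06) passed under every alternative run, DESeq2 included. With DESeq2 the other genes given here did not pass, except Fos and Ly6c2: the adjusted p was 0.508 for Fasl, 0.156 for Ccr7, 0.191 for Ctla4 and at least 0.9 for Arhgap9, Ahr, Nr4a2, Itgae, Xcl1 and Satb1. With at least 2 Gzmb UMIs Ccr7 (edgeR adjusted p = 0.699), Arhgap9 (0.281), Nr4a2 (0.102), Ahr (0.0655), Fos, Ctla4 and Satb1 (0.0614 each) did not pass. Fasl (1.54, adjusted p = 0.00048) had 205 and 151 CPM untreated and 263 and 310 CPM in the combination in granzyme B cells, against 62.4 and 37.9 and then 20.3 and 31.0 CPM in the others, and did not pass without combination 1 (1.41). Ccr7 (1.64, adjusted p = 0.0012) did not pass without untreated 1 (1.29) or combination 2 (1.23). Arhgap9 (1.58, adjusted p = 0.0056) did not pass without untreated 2 (1.21), combination 1 (1.56) or combination 2 (1.59). Ahr (1.35, adjusted p = 0.0013) did not pass without combination 2 (1.13), nor did Nr4a2 (1.22, adjusted p = 0.0013; 0.97), which also did not pass without untreated 2 (0.99). Itgae (1.28, adjusted p = 0.0094) did not pass without untreated 1 (1.45), untreated 2 (1.19) or combination 1 (1.11). Fos (1.27, adjusted p = 0.00042) did not pass without combination 1 (1.20), and Ctla4 (1.20, adjusted p = 0.00077) not without combination 1 (1.19) or combination 2 (1.21).

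The other 4 had a more negative difference in granzyme B cells. Ly6c2 (-2.27, adjusted p = 4.03e-07) passed under every alternative run. Ctla2a (-1.86, adjusted p = 8.52e-06) had 240 and 350 CPM untreated and 101 and 93.0 CPM in the combination in granzyme B cells, and 63.6 and 45.7 and then 51.6 and 69.6 CPM in the others, and with DESeq2 its adjusted p was 0.172. Xcl1 (-1.30, adjusted p = 0.0127) did not pass without untreated 2 (-1.14), combination 1 (-1.28) or combination 2 (-1.33). Satb1 (-1.20, adjusted p = 0.005) did not pass without untreated 2 (-0.93), combination 1 (-1.12) or combination 2 (-1.29).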

How the results depend on the processing

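Counts of passed genes moved more than the genes' directions. Against the other CD8-gated cells 1111 genes passed, 694 with DESeq2, 508 after thinning and 10 within the same clones. Against Ccl5 cells without Gzmb 376 passed, 208 with DESeq2, 130 after thinning, 77 without the library block and 9 within the same clones. The combination against untreated gave 157 genes, 35 with DESeq2, 50 with at least 2 Gzmb UMIs, 104 with a Cd8b1 UMI and 65 to 215 with 1 library left out. S. chamaejasme against untreated gave 84, 13 with DESeq2, 13 with at least 2 Gzmb UMIs, 28 with a Cd8b1 UMI and 55 to 199 with 1 library left out. The interaction gave 28, 4 with DESeq2, 9 with at least 2 Gzmb UMIs and 17 to 42 with 1 library left out. The stricter gates and the clone comparison hold fewer cells, and for DESeq2 the cause was not tested. Within the same clones 498 of 654 genes (76.1%) kept their direction against the other cells. Against Ccl5 cells without Gzmb 253 of 281 (90.0%) did. The rest had no difference in that direction, and none of them passed with the opposite sign. Only genes described in this text are listed next. Among them, those with the opposite sign against the other cells were Ifng (-0.26, SE 0.21), Ctla4 (-0.23, SE 0.17), Itgae (-0.027, SE 0.17) and Bcl2 (0.19, SE 0.17). Against Ccl5 cells without Gzmb they were Ifng (-0.36, SE 0.21), Itgae (-0.041, SE 0.17) and Tbx21 (-0.049, SE 0.30). Pdcd1 between combination and untreated (0.12) was -0.085 (SE 1.14) with DESeq2 and ranged from -0.82 to 1.46 with 1 library left out. The expanded share was higher by 32.78 to 38.79 points under the other clone definitions and gates and 36.29 to 40.49 with 1 tumour left out. No genes were tested within clones or after thinning between treatment groups.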
